A study of Mus musculus with 4 samples.

Results

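Exon bins altered after loss of LSH in mouse embryonic stem (ES) cells, and not in mouse embryonic fibroblasts (MEFs), are described here. The 5 kb bins were selected on the authors' 2 deposited lists of bins called differential for 5-hydroxymethylcytosine (5hmC) between wild-type and LSH knockout cells, 1 list each for ES cells and MEFs. An exon bin of the ES list was kept when it was absent from the MEF list, overlapped an exon, and did not reach within 1 kb of a gene start (mm9 with GENCODE M1 protein-coding, lincRNA and processed transcript genes). This rule chose 2857 bins (14.3 Mb) of the 8139 bins listed in ES cells only, of the 8545 listed in ES cells and of the 17111 listed in either cell type on chromosomes 1 to 19 and X. They are called ES-only exon bins. Across the genome 1.67% of 511186 bins with sequence were on the ES list, and 3.30% of 86565 exon bins were ES-only exon bins. Both shares follow from the selection and serve only as a background.

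The 4 libraries were wild-type ES cells, ES cells with a knockout of LSH, wild-type MEFs and MEFs with a knockout of LSH, with 1 library per group. ES cells were grown with serum and LIF and MEFs with serum. 5hmC was tagged with a modified glucose, biotinylated and captured from sheared DNA before sequencing. Strain, knockout allele, and the clone or embryo behind each library are details not given in the sources used here, which is a limit on what each group stands for. The lists give positions without level, direction, fold or p-value, and the depth is unknown, so a bin is called listed and never higher or lower. Neither the cell types nor the loss of LSH can be checked from positions. With 1 library per genotype and the caller unknown, a difference between ES cells and MEFs cannot be told apart from a difference in how the lists were made. Brackets give exact 95% intervals, which cover counting error over bins or genes and not error between cultures, and no difference below was tested.

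5hmC is made when TET enzymes oxidise 5-methylcytosine, which in mammals lies mostly at CpG dinucleotides. It is an intermediate of demethylation and also a lasting mark, found in gene bodies and at enhancers, and ES cells express TET1 and TET2. LSH, encoded by Hells, is a chromatin remodeler of the SNF2 family that is needed for normal DNA methylation, most of all in repeated sequence.

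Most of the ES-only exon bins hold coding exon, and the following 150-base windows show the CpG-bearing coding sequence inside them. Each is the window with the most CpG wholly inside coding exon within the ES-only exon bins of its gene, read 5′ to 3′ on the gene's strand of NCBIM37 (mm9), with each CpG in capitals. Exons are numbered from the gene start in the transcript with the most exons. The genes were picked after the windows were computed, to span a receptor for lysosomal enzymes (Igf2r), a guidance receptor (Nrp2), chromatin factors (Arid2, Tet3, Kdm2b), a co-chaperone (Fkbp5), a pluripotency factor (Klf5) and a splicing factor (Srsf9).
Igf2r, chr17:12890245-12890394, minus strand, exon 35 of 48, 6 CpG: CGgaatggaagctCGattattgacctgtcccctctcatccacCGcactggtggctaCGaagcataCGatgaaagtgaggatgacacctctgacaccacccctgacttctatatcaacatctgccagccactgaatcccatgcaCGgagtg
Nrp2, chr1:62791932-62792081, plus strand, exon 5 of 17, 7 CpG: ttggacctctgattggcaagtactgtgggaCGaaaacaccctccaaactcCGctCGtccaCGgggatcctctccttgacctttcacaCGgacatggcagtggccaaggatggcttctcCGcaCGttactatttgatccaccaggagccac
Arid2, chr15:96201989-96202138, plus strand, exon 15 of 21, 12 CpG: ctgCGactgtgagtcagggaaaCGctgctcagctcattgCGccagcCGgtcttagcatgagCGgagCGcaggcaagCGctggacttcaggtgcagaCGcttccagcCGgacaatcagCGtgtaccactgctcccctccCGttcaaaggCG
Fkbp5, chr17:28543030-28543179, minus strand, exon 12 of 14, 6 CpG: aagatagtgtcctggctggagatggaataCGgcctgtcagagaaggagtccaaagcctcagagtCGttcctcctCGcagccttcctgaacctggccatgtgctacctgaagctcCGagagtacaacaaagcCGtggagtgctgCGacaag
Tet3, chr6:83318228-83318377, minus strand, exon 11 of 11, 12 CpG: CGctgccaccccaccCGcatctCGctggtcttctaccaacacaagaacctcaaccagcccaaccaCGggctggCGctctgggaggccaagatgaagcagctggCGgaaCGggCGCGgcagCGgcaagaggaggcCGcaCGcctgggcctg
Kdm2b, chr5:123330380-123330529, minus strand, exon 19 of 23, 14 CpG: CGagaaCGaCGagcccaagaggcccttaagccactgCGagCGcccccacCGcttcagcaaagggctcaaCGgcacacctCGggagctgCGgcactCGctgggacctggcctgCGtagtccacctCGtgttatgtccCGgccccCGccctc
Klf5, chr14:99712386-99712535, plus strand, exon 4 of 4, 13 CpG: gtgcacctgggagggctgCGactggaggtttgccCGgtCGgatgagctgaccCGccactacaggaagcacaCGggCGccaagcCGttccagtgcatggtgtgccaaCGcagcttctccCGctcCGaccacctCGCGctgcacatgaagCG
Srsf9, chr5:115780507-115780656, plus strand, exon 2 of 5, 11 CpG: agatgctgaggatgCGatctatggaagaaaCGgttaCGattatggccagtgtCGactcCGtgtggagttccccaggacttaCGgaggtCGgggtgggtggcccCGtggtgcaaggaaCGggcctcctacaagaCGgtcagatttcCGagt
The windows are chosen for their CpG and are denser in it than the bins around them. The Kdm2b window held 93.3 CpG per kb in a bin of 22.0, and the Igf2r window held 40 in a bin of 14.8. What was captured is the fragment, so the lists do not say which of these CpG carried 5hmC.

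Exon bins were 35.1% of all bins listed in ES cells only [34.1% to 36.2%], against 16.9% of all bins with sequence. The rest of the ES-only bins were 964 promoter bins, 1886 intron bins and 2432 intergenic bins. Of the promoter bins 871 also held an exon, so the exon class does not count every ES-only bin over an exon. Of the 8566 bins listed in MEFs only, 1783 were exon bins (20.8%) [20% to 21.7%], and 107 exon bins were on both lists.

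**Figure D1:**
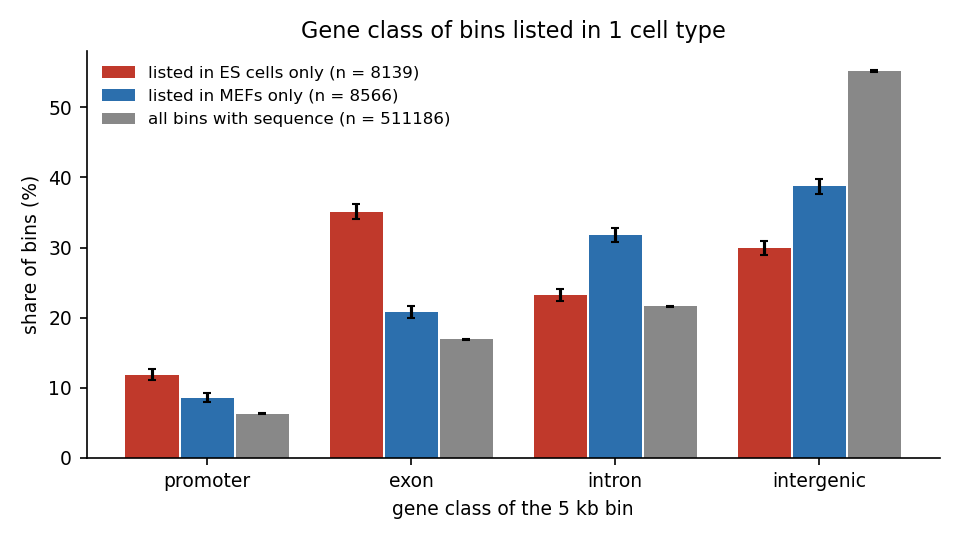
Share of 5 kb bins (y axis, percent) in each gene class (x axis) for bins listed in ES cells only, bins listed in MEFs only and all bins with sequence; bars start at 0 and error bars are exact 95% binomial intervals over bins. Exon bins are 35.1% of the ES-only bins and 20.8% of the MEF-only bins.

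The ES-only exon bins lay mostly over coding exons. A coding base was present in 2538 of them, 88.8% [87.6% to 90.0%], against 86.8% of exon bins on neither list and 81.5% of exon bins listed in MEFs only. Of the other 319, 172 held only untranslated sequence of coding genes, 133 held only exons with neither coding nor untranslated annotation, and 14 held both kinds. Their median exonic content was 477 bases per bin, against 346 on neither list and 310 in MEFs only, and their median coding content was 256 bases against 196 and 162. Thus the median ES-only exon bin was still mostly intron or flanking sequence: 17.6% of all bases in these bins were exonic, and 235 bins (8.23%) were more than 50% exonic. In 11 bins all 5000 bases were exonic, 6 of them without a coding base and 1, at Ank2, wholly coding. Examples of these ties are Rai1, with 4133 coding bases, and the untranslated last exons of Creb1 and Ssr1. Ank2 encodes ankyrin B, a membrane adaptor, Rai1 a nuclear regulator of transcription, Creb1 the cAMP-responsive factor CREB, and Ssr1 a subunit of the translocon-associated protein complex.

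Bins with several exons were common among them. Exactly 1 exon was present in 39.9% of ES-only exon bins, against 48.1% on neither list and 54.0% in MEFs only. At least 5 exons were present in 11.2% [10.1% to 12.5%], against 6.95% and 5.5%. Read the other way, the share of exon bins that were ES-only rose from 2.75% of those with 1 exon to 4.60% with 4 and 6.0% with 8 or more [4.74% to 7.46%]. CpG density moved with the number of exons, from a median of 8.8 to 16.4 CpG per kb over all exon bins, and its part in this order was not tested. The most exons in 1 bin, 15, were at Col6a1, Ipo4 and Nol6, which encode a collagen VI chain, a nuclear import receptor and a nucleolar protein.

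The selection has 2 edges, exon overlap and distance from a gene start. Each gene had a single start, the 5′ end of its annotated locus, so starts of shorter transcripts inside it were not kept clear. Of the ES-only exon bins, 607 touched the first exon of some transcript, and the set is not free of alternative starts. Just inside the first were 39 bins with under 50 exonic bases, the smallest overlap being 5 bases at Kcnj6, a potassium channel gene. Just outside it were 9 ES-only intron bins with an exon within 50 bases, the nearest 1 base away. On the other edge, 144 ES-only exon bins had a gene start within 2 kb, and 65 ES-only bins with an exon were left out because a gene start lay within 1 kb but not within 500 bases.

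CpG density, which was not part of the selection rule, had a median of 13.4 CpG per kb in ES-only exon bins [13.2 to 13.6], with quartiles of 10.6 and 16.4 and a range of 3.6 to 52. Exon bins on neither list had a median of 9.2, exon bins listed in MEFs only had 12, and intron bins listed in ES cells only had 11.6. Median GC content was 46.9%, 43.1%, 46.6% and 45.6% in the same order. CpG was denser in the exons of these bins, at 23.0 per kb against 12 in their other sequence, a ratio of 1.91. Exons still held only 29.0% of the CpG of these bins, against 24.3% on neither list. The ratio was 1.98 in exon bins on neither list, so the higher density of exons is shared by exon bins at large. Both compartments were denser in the ES-only exon bins (17.5 and 8.86 per kb on neither list).

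Repeated sequence, where LSH is known to act, was scarce in these bins. A median of 3.85% of their 32-base words occurred more than once in the genome, against 5.13% in exon bins on neither list. The median was 2.94% in exon bins listed in MEFs only and 4.57% in ES-only intron bins. By this measure 6 of the 2857 bins (0.21%) were more than 50% repeated, against 3.25% on neither list. That share was 0.112% in exon bins listed in MEFs only and 0.265% in ES-only intron bins, so the scarcity was not particular to ES-only exon bins. Reads are hard to place in repeated sequence, so its scarcity in the lists says nothing of 5hmC there.

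Split into 10 groups of equal size by CpG density, 0.162% of exon bins in the lowest group were ES-only exon bins and 8.33% in the highest [7.75% to 8.93%]. The share was higher in each group than in the group before it. For exon bins listed in MEFs only the share went from 0.231% to 3.70% and stood at 3.18% from 10.6 to 12 CpG per kb. In the highest group the ES-only share was 8.65% over coding exons [8.03% to 9.29%] and 5.37% without a coding base [3.94% to 7.12%]. In the group from 13.8 to 16.4 CpG per kb these were 6.76% and 7.69%, in the other order and with overlapping intervals. The background takes in bins where no change in 5hmC may have been detectable, and its part in the gradient was not tested.

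**Figure D2:**
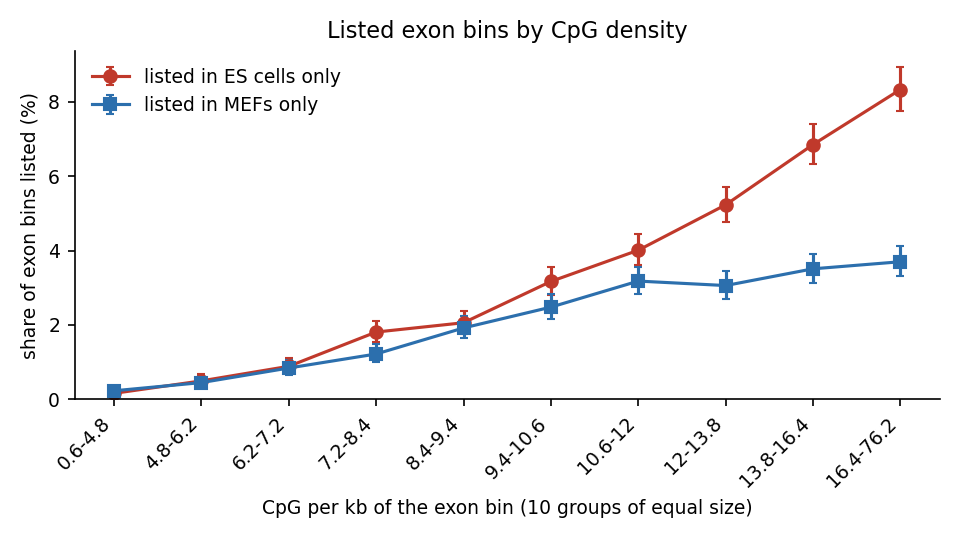
Share of exon bins (y axis, percent) listed in ES cells only and in MEFs only, across 10 groups of exon bins of equal size ordered by CpG per kb (x axis); error bars are exact 95% binomial intervals over bins. The ES-only share climbs to 8.33% in the highest group, and the MEF-only share to 3.70%.

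The densest of the ES-only exon bins were at Gata2, which encodes a haematopoietic GATA factor, with 52.0 CpG per kb, at Shank1, a postsynaptic scaffold gene, with 48.6, and, tied at 44.4, at Pcdh8, a protocadherin gene, and at Fkbp5, a co-chaperone gene. The Gata2 bin (chromosome 6, 88145001 to 88150000) held 229 coding and 262 untranslated bases 3.62 kb from the nearest gene start. The Shank1 bin (chromosome 7, 51605001 to 51610000) lay deep in its gene, 32 kb from the nearest start, over 3171 coding bases in exons 23 and 24 of 25.

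Within single genes the difference in CpG was smaller. In 2342 genes that held both an ES-only exon bin and an exon bin on neither list, the ES-only bins had the higher mean CpG density in 1417 genes (60.5%) [58.5% to 62.5%] and the lower in 914. The medians over genes were 13.2 and 12.2 CpG per kb, with a median difference of 0.867. For the other measures the counts leaned slightly the other way. ES-only bins held more coding bases in 1106 genes (47.2%) and fewer in 1191, and more exons in 999 (42.7%), fewer in 1140 and as many in 203.

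By chromosome, the ES-only share of exon bins was highest on chromosome 17, at 179 of 3339 (5.36%) [4.62% to 6.18%], followed by chromosome 11 (4.12%) and chromosome 5 (4.02%). Among autosomes it was lowest on chromosome 1, at 2.70%. The X chromosome had 7 of 3482 (0.201%) [0.0809% to 0.414%], and exon bins listed in MEFs only were also few there, at 9 (0.258%). Median CpG density of exon bins was 6.0 per kb on X, 8.6 on chromosome 1 and 11 on chromosome 17. The part of CpG density in these shares was not tested.

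The ES-only exon bins lay at a median of 18.6 kb from the nearest gene start [17.8 to 19.5], against 24.5 kb on neither list and 25 kb in MEFs only. A last exon was touched by 47.3% of them [45.4% to 49.1%], against 41.4% on neither list and 38.6% in MEFs only. A first exon was touched by 21.2% [19.8% to 22.8%], against 16.1% and 22.4%, so over exon bins on neither list both ends of transcripts were touched more often. A 3′ untranslated region was touched by 34.5%, against 30.7% and 25.5%, and a 5′ untranslated region by 13%, against 12.6% and 18.1%. Placed along their genes, 26.8% of ES-only exon bins fell in the last of 10 equal parts [25.2% to 28.5%], against 25.4% on neither list and 22.5% in MEFs only. The excess over exon bins on neither list was thus small. By gene length, the last 2 of the 10 parts held 48.8% of ES-only exon bins in genes up to 20 kb, against 50.3% on neither list, 35.3% against 34.3% in genes of 20 to 100 kb, and 42.3% [38.9% to 45.8%] against 38.6% in genes over 100 kb.

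**Figure D3:**
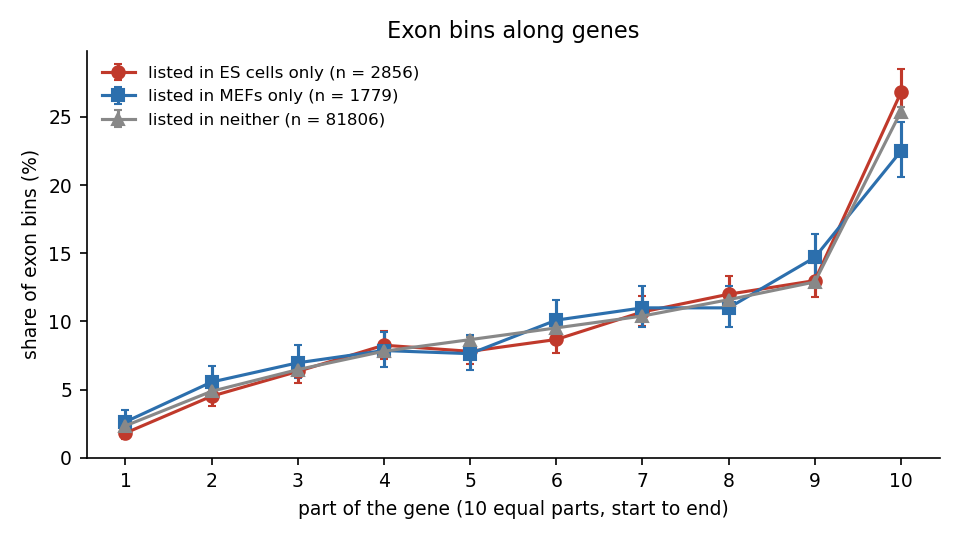
Share of exon bins (y axis, percent) whose centre falls in each of 10 equal parts of the gene from start to end (x axis), for bins listed in ES cells only, in MEFs only and in neither; error bars are exact 95% binomial intervals over bins. All 3 kinds rise toward the gene end, with 26.8%, 22.5% and 25.4% in the last of the 10 parts, and few lie in the first because bins at gene starts were left out by the selection.

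Exons of 2567 genes, 13.2% of the 19401 genes with an exon bin, were reached by the ES-only exon bins, among them 2443 protein-coding genes, 65 lincRNA genes and 59 processed transcripts. By gene, 2217 had 1 ES-only exon bin, 289 had 2, 51 had 3 and 10 had 4, the most in any gene. With 3.30% of all exon bins chosen, 1 bin per gene would be common, and scatter over genes was not tested. Long genes offer more bins. Genes with an ES-only exon bin had a median length of 44.7 kb and 13 exons, against 20.2 kb and 7 exons for other genes. The start of the same gene was seldom listed too, with an ES-listed bin at the start of 144 genes (5.61%), against 3.92% of genes without an ES-only exon bin. Exons of 1 gene were touched by 2726 of the bins, while 130 touched 2 genes and 1 touched more, so those cannot be assigned to a single gene.

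Most ES-only exon bins had no directly touching bin of the same kind. An ES-listed bin of any class lay beside 326 of them (11.4%) [10.3% to 12.6%], against 6.0% of exon bins on neither list. The share was similar in other ES-listed bins, at 10.8% of ES-only intron bins and 13.1% of exon bins on both lists. The part of CpG density in it was not tested. Directly touching neighbours of the same kind joined 198 bins into 99 pairs and 18 bins into 6 runs of 3, and 2637 bins had none. The single run of 4 lay in Igf2r, the imprinted gene of the receptor that carries lysosomal enzymes and clears IGF2. It covered chromosome 17, 12880001 to 12900000, with 3719 coding bases in 22 exon pieces. In gene order the 4 bins held exons 23 to 28, 29 to 35, 36 to 39 and 40 to 44 of 48. Their CpG densities were 15.6, 14.8, 12 and 20.4 per kb, against 7.6 to 14.2 in the other 8 exon bins of the gene. The run thus covers the coding exons of the later gene body, with 1 bin below the densest unlisted exon bin, and no Igf2r bin was on the MEF list.

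Runs of 3 lay in Mtmr3, Irak2 and Ltbp4, and over the gene pairs Lin7c with Gm13939, Csdc2 with Pmm1, and Abcg8 with Lrpprc. Irak2 encodes a kinase of interleukin-1 and Toll-like receptor signalling, and its run (chromosome 6, 113625001 to 113640000) held 685 coding bases. Ltbp4 encodes a binding protein of latent TGF-beta, and its run (chromosome 7, 28100001 to 28115000) held 2757 coding bases in 19 exon pieces at 23.1 CpG per kb, between 14.2 and 39.8 in single bins. The run of Mtmr3, a gene of the myotubularin phosphoinositide phosphatases, spanned exons 9 to 18 of 19 at 10.5 CpG per kb. That is below the median of all ES-only exon bins. Within the gene, however, the 3 bins had 12.6, 9.4 and 9.4 CpG per kb, against 5.0 to 9.4 in its 7 unlisted exon bins. Mtmr3 had 4 of 11 exon bins listed in ES cells only. The bin outside the run, over exon 5, had 6.2 CpG per kb, inside the range of the unlisted bins.

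Among the other genes with 4 ES-only exon bins, Arid2, which encodes a subunit of the PBAF remodeling complex, had them in 4 of 9 exon bins. Its exon 15 filled 2843 bases of 1 bin (chromosome 15, 96200001 to 96205000, 19 CpG per kb), all of them coding, while the bin at its last exon held 894 bases of 3′ untranslated sequence and 0 coding bases (11 CpG per kb). Fkbp5, the gene of a co-chaperone of the glucocorticoid receptor, had 4 of 11. One of these (chromosome 17, 28620001 to 28625000) had 44.4 CpG per kb with 297 exonic bases, all 5′ untranslated. It lay 32 kb from the nearest gene start, counted only from the 5′ end of each locus. Whether a shorter Fkbp5 transcript starts in it was not examined. The other ES-only exon bins of Fkbp5 had 14.8, 10.6 and 9.4 CpG per kb. Nrp2, which encodes a receptor of semaphorins and VEGF, had 4 of 14, over exons 2, 4 to 6, 8 to 9 and 11 to 12 of 17. All exonic bases of these bins were coding. The Nrp2 bins lay between 12.4 and 13.4 CpG per kb, inside the 10.4 to 16.6 of the unlisted exon bins.

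Helz, the gene of an RNA helicase with a zinc finger, had 4 of 21 exon bins, each with coding sequence, between 11 and 14.6 CpG per kb, also inside the range of its unlisted exon bins (9.0 to 21.2). Ube4b, a ubiquitin chain elongation gene, had 4 of 10 between 14.2 and 18.4, with unlisted bins from 9.4 to 19.4. The annotated Ube4b locus contains 3 other genes. Lrpprc, needed for stability of mitochondrial mRNA, had 4 of 16, and Lrch1, a gene of leucine-rich repeats, had 4 of 17. Of the Lrch1 bins, 2 held only 58 and 37 exonic bases, none coding. Nav2, a neuron navigator gene, had 4 of 28, from exon 18 to exon 39 of 39, the last with 2812 untranslated bases.

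By share of exon bins, the leaders among genes with 3 were Sgsm2, which encodes a regulator of RAB GTPases, with 3 of 5, and Ccdc63, a coiled-coil gene, with 3 of 6. The bins of Sgsm2 (13 to 15.2 CpG per kb) overlapped its 2 unlisted exon bins (13.4 and 17.2). The Ccdc63 bins had 14.8, 18.6 and 21.6, against 11.4 to 17.0 in its unlisted exon bins. In each of the 12 genes the ranges of CpG density of ES-only and unlisted exon bins overlapped. Nav2 had 11 MEF-listed bins in its body, 4 of them exon bins, Lrch1 had 3, and Arid2, Fkbp5, Nrp2 and Lrpprc had 1 each. Ube4b, Mtmr3, Igf2r, Helz, Sgsm2 and Ccdc63 had none.

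**Figure D4:**
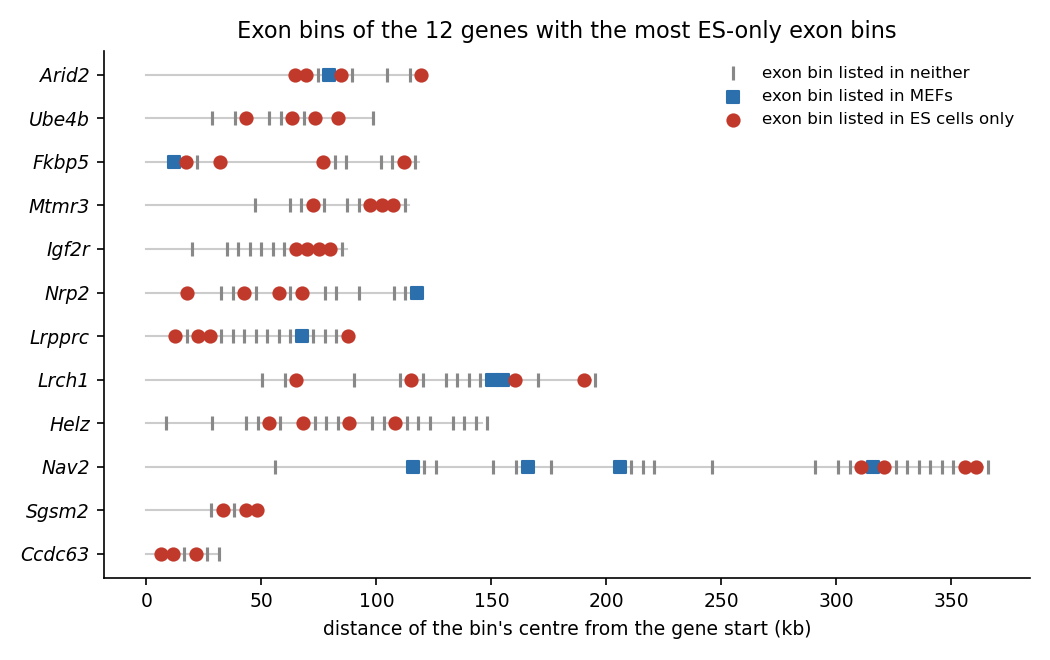
Exon bins of the 12 genes with the most ES-only exon bins, drawn at the distance of the bin's centre from the gene start (x axis, kb), 1 gene per line with a grey line for the gene's length; circles are bins listed in ES cells only, squares bins on the MEF list, and ticks bins on neither list. The 4 circles of Igf2r touch, and those of the other genes are spread out or form runs of up to 3.

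A MEF-listed bin directly beside an ES-only exon bin is a readout that the choice of the bin itself did not use, although a MEF listing of the bin was barred. It was present for 164 bins, 5.74% [4.92% to 6.66%], against 3.81% of exon bins on neither list and 9.28% of ES-only intron bins. CpG density moved with it. In the highest 2 of the 10 CpG groups the shares were 6.77% [5.47% to 8.27%] and 6.25% [5.88% to 6.65%], in groups 6 to 8 they were 5.40% and 4.91%, and in the lowest 5 groups 3.62% [2.13% to 5.74%] and 2.31%. The bands are broad. The ES-only exon bins had the higher value in all 3, and each time their interval took in the value on neither list. The part of CpG density in the share was not tested. By gene, a MEF-listed bin lay in the body of 723 of the 2567 genes (28.2%), against 14.0% of genes without an ES-only exon bin. With genes in 5 groups of equal size by length, the shares were, from the shortest group to the longest, 3.16% and 5.05%, 7.26% and 6.99%, 12.4% and 10.6%, 23.1% and 16.4%, and 52.1% and 35%. Genes with an ES-only exon bin were thus higher in 4 of the 5 groups, and the shortest group rested on 5 of 158 such genes. The longest group ran from 66.2 to 2270 kb, so length still varied within it, and the part of length in these shares was not tested.

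Gene groups are given by the share of their exon bins that were ES-only exon bins, beside 3.30% for all exon bins. For exon bins listed in MEFs only the share over all exon bins was 2.06%, beside which the MEF counts below stand. Genes of DNA methylation and hydroxymethylation had 8 of 96 (8.33%) [3.67% to 15.8%], in 7 of 21 genes, against 1 bin in MEFs only. Tet3, whose product oxidises 5-methylcytosine, had 2 of 7 exon bins, 1 with 1781 coding and 3038 untranslated bases of the last exon (28.2 CpG per kb) and 1 with 2113 coding bases of exon 3 (16.8). Dnmt1, the maintenance methyltransferase gene, had 1 bin over exons 22 to 28 of 39. Dnmt3b, a de novo methyltransferase gene, had 1 over exons 3 to 5 of 24 (10.0 CpG per kb), Dnmt3l, the gene of their cofactor, had 1 with 431 coding bases, and Idh2, whose product makes the TET cosubstrate 2-oxoglutarate, had 1 over exons 4 to 11 of 11. Tet1 and Dnmt3a had 1 each. A MEF-listed bin touched the Dnmt3b bin. The bodies of Dnmt3b, Tet1 and Dnmt3a held 1 MEF-listed bin each, and those of Tet3, Idh2, Dnmt3l and Dnmt1 held none. The list's exon bins had a median of 11.8 CpG per kb, above the 9.2 of exon bins on neither list.

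Remodelers of the SNF2 family, to which LSH belongs, together with LSH partners, had 8 of 328 (2.44%), 1 bin in each of 8 genes of 30. They were the CHD remodeler genes Chd2, Chd5, Chd7 and Chd8, the BAF ATPase genes Smarca2 and Smarca4, the annealing helicase gene Smarcal1, and Btaf1. The body of Smarca2 held 5 MEF-listed bins, those of Btaf1 and Chd7 held 1 each, and the others held none. The Smarca4 bin covered the end of the gene, exons 32 to 34 of 34, and the Chd8 bin exons 9 to 12 of 37. Histone lysine methyltransferases and demethylases had 15 of 387 (3.88%) in 14 of 43 genes. Kdm2b, the H3K36 demethylase gene whose product binds CpG islands, had 2, with 22.0 and 30 CpG per kb, the second without a coding base. Ezh2 and Ezh1, the H3K27 methyltransferase genes, had 1 each, and the Ezh2 bin, over exons 16 to 20 of 20, was among the CpG-poor ones at 5.6 per kb. Setd1b had 1 over exons 8 to 12 of 17.

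Pluripotency genes had 1 of 77 exon bins (1.3%) [0.0329% to 7.02%], the last exon of Klf5, in 1 of 27 genes. Imprinted genes had 12 of 179 (6.70%) [3.51% to 11.4%] in 9 of 30 genes, and 4 of the 12 were the Igf2r run, which was known when the list was written. Another 9 of the 179 were listed in MEFs only, so listed exon bins of imprinted genes were not particular to ES cells. Without Igf2r, an alternative chosen after seeing the data, the list had 8 of 167 (4.79%) [2.09% to 9.22%]. Rtl1, a retrotransposon-derived placental gene, had 1 bin with 3613 coding bases at 27.2 CpG per kb, Gnas, the gene of a G protein alpha subunit, had 1 with 990 coding and 1316 untranslated bases, and Impact had 1 with 40 coding bases. Splicing regulators had 10 of 241 (4.15%), 1 in each of 10 genes of 48. Srsf9 had its only exon bin listed, with exons 2 to 5 of 5. Srrm2 had 3945 coding bases in its bin at 27.6 CpG per kb, U2af1 had a bin at its last exon, and Tra2a had 1 with 441 coding and 1237 untranslated bases.

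Notch pathway genes had 9 of 128 (7.03%) [3.27% to 12.9%] in 6 of 22 genes, with a median of 14.6 CpG per kb over the list's exon bins. Spen, a corepressor gene, had 2 of 9 exon bins, and the ligand gene Dll1 and the glycosyltransferase gene Lfng had 1 each, both at the last exon and mostly untranslated (679 and 1073 untranslated bases). Hox genes, which pattern the body axis, had 2 of 17, 1 shared by Hoxd3 and Hoxd4 and 1 with 91 untranslated bases at Hoxc6. Other developmental transcription factors had 9 of 258 (3.49%) in 7 of 54 genes, against 13 bins in MEFs only. Foxp1, a forkhead gene, had 3, from 259 to 289 kb from the nearest gene start, and Gata2, Lhx2 and Six3 had 1 each.

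Collagens had 10 of 603 (1.66%) [0.798% to 3.03%] in 9 of 44 genes, while 23 of their exon bins were listed in MEFs only. Col23a1, a transmembrane collagen gene, had 2, with 27 and 54 exonic bases, and Col6a1, Col16a1 and Emid2 had 1 each. Laminins and other basement membrane genes had 11 of 340 (3.24%), against 10 in MEFs only, led by Lama1, the laminin alpha 1 gene, with 3 over exons 9 to 12, 16 and 17 to 19 of 63. Growth factor receptors had 13 of 353 (3.68%), against 17 in MEFs only. Fgfr1, Flt1, Igf1r and Lrp1 had 2 each, and those of Lrp1 ran together over exons 71 to 89 of 89.

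Spectrins, ankyrins and plakins, which tie membranes to the cytoskeleton, had 10 of 253 (3.95%), all over coding exons, with 2 each in Ank1, Ank3 and Dst and 1 in Dsp. Myosins, kinesins and dyneins, long genes with many exons, had 25 of 1000 (2.50%) in 21 of 63 genes. Dnahc8 had 3, Dnahc2 and Myo6 had 2 each, and Myh6 had 1 over exons 12 to 20 of 39. Exon bins listed in MEFs only were 5 in the SNF2 list, 3 in the histone list, 0 in pluripotency genes and 1 in splicing regulators. They were 1 each in Notch and Hox genes, 2 in spectrins, ankyrins and plakins, and 19 in myosins, kinesins and dyneins. The shares are descriptions without a test, and neighbouring bins of 1 gene were counted singly. The median gene length was above the 22.5 kb of all genes with an exon bin in 11 of the 14 lists, and the share of genes with an ES-only exon bin was above 13.2% in 12.

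**Figure D5:**
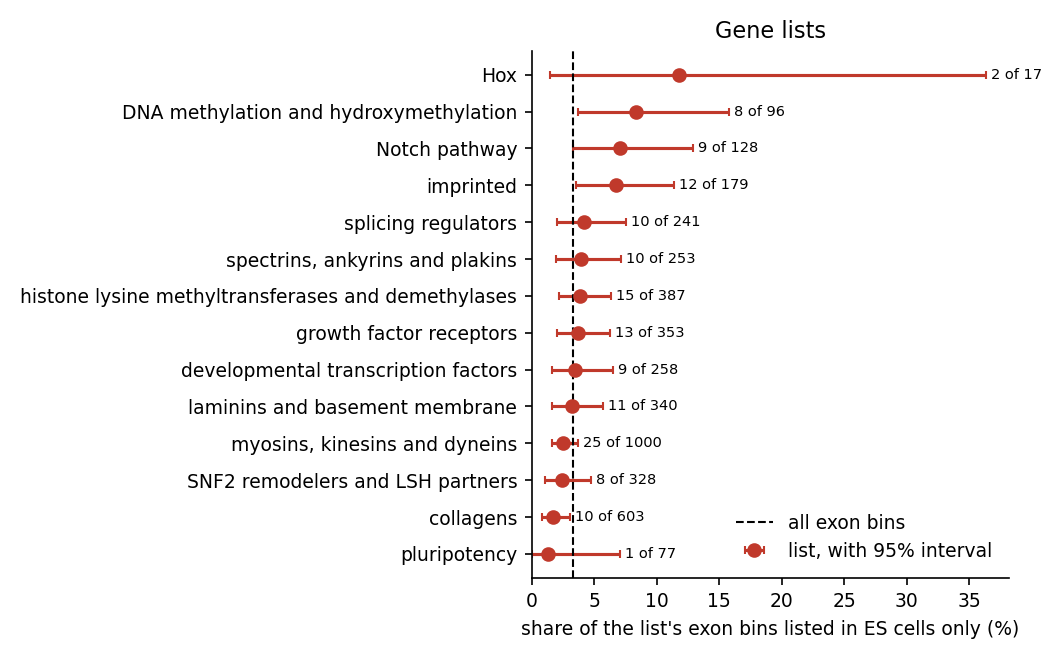
Share of each gene list's exon bins that were listed in ES cells only (x axis, percent; points with exact 95% binomial intervals), with the number of bins beside each, and the 3.30% of all exon bins as a dashed line. DNA methylation genes stand at 8.33%, collagens at 1.66%, and the Hox value rests on 17 bins.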

How the data were processed

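Genomic DNA of 4 libraries, 1 per genotype and cell type, was captured for 5hmC with a glucosylation and biotin kit and sequenced, per the labels' protocols. BWA, SAMtools 1.3.1 and mm9 are named without their roles, per the submitters' processing notes. Read counting, the differential caller with its threshold, and any input library were not given in the sources used here. Lists deposited by the authors hold the chromosome, start, end and running number of each 5 kb bin, and no measured value, so no test between libraries could be made and the depth is unknown. On chromosomes 1 to 19 and X, the running numbers matched the reference in all 8545 bins for ES cells and all 8972 for MEFs. No column was left unmatched.

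Sequence came from NCBIM37 and genes from GENCODE M1 (26031 protein-coding, lincRNA and processed transcript symbols, the longest locus being kept for each). Bins with at least 50% known bases were used, and each had 1 class, in the order promoter, exon, intron, intergenic. Repeated sequence was the share of 32-base words, sampled 1 in 64, that occur more than once. Intervals are exact binomial for shares and from order statistics for medians. Named genes were the 12 with the most ES-only exon bins (leaving out 7 models that contain 10 or more other genes), up to 4 per gene list, the longest runs and the 3 bins highest in CpG, exonic bases and exons. Further list genes in the text were chosen after their values were seen. The bins and gene lists were chosen with earlier results of these data known. Older list symbols were matched through a RefSeq table of GRCm38.p6, used for names only. Alternatives were a midpoint rule, other windows at gene starts, protein-coding genes only, a minimum exon overlap, no touching MEF bin, no wide models and a wider neighbourhood. The scripts were tested on simulated data. Scripts ran in Python 3.11.15 with pandas 2.3.3, scipy 1.17.1, matplotlib 3.10.9 and numpy 2.4.6.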

Additional observations from a re-analysis of the deposited data

How the results depend on the processing

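Of 42 alternatives, the imprinted list without Igf2r not counted, 31 gave a value within the interval, or a count within 1.5 times, of the value reported, and 11 did not. Several alternatives kept nearly the same bins, such as 2856 without wide models and 2693 without a touching MEF-listed bin. Their values could move little, so the count of 31 is not a measure of robustness. Requiring the bin's midpoint to lie in an exon left 608 bins, 7.47% of the bins listed in ES cells only, with a median of 15.5 CpG per kb, 11.9 kb to the nearest gene start and 91.0% over coding exons, since few midpoints fall in an exon. With 2 kb kept clear on either side of gene starts, exon bins were 33.3% of the bins listed in ES cells only and lay 19.9 kb from a start. With protein-coding genes only, the distance was 20.4 kb and the coding share 91.5%. With at least 100 exonic bases, exon bins were 32.1%. A MEF-listed bin within 10 kb was present for 11.2%, against 7.28% of exon bins on neither list and 17.3% of ES-only intron bins. No paired analysis was possible because each group has 1 library and the lists hold no value per library. The number of exon bins rests on the any-overlap rule, and the unknown depth limits every statement about bins that are not listed.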
